A study of Mus musculus with 16 samples.

Results

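The genes described here are 35 mouse genes of the endoplasmic reticulum (ER), the compartment in which a cell folds the proteins it secretes. They were taken from a list of symbols, each matched to 1 Ensembl row of the count table, and are 35 of the 53801 gene rows. By role they are 11 ER chaperones and co-chaperones, 5 disulfide isomerases, 7 genes of ER-associated degradation, 3 unfolded protein sensors, 6 genes of the translocon and 3 of signal peptidase. All 35 were among the 14351 genes with enough counts to be tested.

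Proteins bound for secretion enter the ER through the SEC61 channel while they are being made, lose their signal peptide to signal peptidase, and are folded by chaperones such as BiP (the product of Hspa5) and by disulfide isomerases. Chains that fail to fold are sent back to the cytosol and destroyed, which is ER-associated degradation. When unfolded chains build up, the sensors IRE1 (Ern1) and ATF6, together with the IRE1-spliced transcription factor XBP1, raise the transcription of many of these same genes; this is the unfolded protein response. Hepatocytes carry a heavy load of this work because they make most of the proteins of blood plasma.

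The livers came from 16 mice in 4 groups of 4: control mice on normal chow, mice with a liver-specific Degs1 knockout on normal chow, control mice on a high-fat diet, and knockout mice on the high-fat diet. Degs1 encodes a desaturase that turns dihydroceramide into ceramide. The promoter or method behind the liver-specific deletion, the genotype of the controls, the strain, the sex, the age, the fat content and the length of feeding are not given by the labels. Animals on the high-fat diet are numbered between 61 and 92, those on chow between 179 and 220, and within each diet they do not overlap between genotypes, so any difference that goes with these numbers cannot be told apart from diet or genotype. Each liver has its own number, and p-values measure the spread between livers.

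Degs1 checked the labels. It was at 84.7 ± 3.13 CPM (counts scaled to library size; SD, n = 4) in chow controls against 38.0 ± 1.65 in chow knockouts. On the high-fat diet it was at 73.4 ± 18.9 CPM in controls against 31.2 ± 7.01 in knockouts, with no overlap between genotypes on either diet. In the edgeR test it fell by 1.16 on the log2 scale on chow (adjusted p = 0.0123) and by 1.23 on the high-fat diet (adjusted p = 0.00376). The call on chow passed in 9 of the 16 fits that left out 1 liver. It was lost without chow control 1, 3 or 4 and without any 1 of the chow knockouts. The call on the high-fat diet passed in all 16 of these fits, but was lost when only the groups compared were fitted. Both calls of Degs1 were lost in the fit with a covariate that is given below. Library totals ran from 11938596 to 23250885 counts. The 9 hepatocyte markers, Alb and Hnf4a among them, were all present in every group, and their summed level ran from 60117 to 144240 CPM. The library of high-fat control 3 stood apart from its group: 0.0218% of its counts lay on sense-intronic and unconfirmed gene models, against 0.0512 to 0.164% in the other high-fat controls and 0.0263 to 0.0411% in the chow controls. Chow knockout 1 had the smallest total of the 16. The counts of calls are given with and without these libraries. Member values without high-fat control 3 are given for only some of the genes in which it stood apart.

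The promoters of 5 of these genes are shown because the ER stress response element (ERSE), to which ATF6 and XBP1 are known to bind, was first described in promoters of this class. Hspa5 and Canx are members that fell with the high-fat diet in knockouts and hold an ERSE, and Herpud1 holds the related ERSE-II. Dnajb9 and Pdia5, which also fell with that diet in knockouts, hold no exact match to either. Each sequence runs 5′ to 3′ on the strand of the gene, from 250 bases before to 50 bases after the RefSeq start (build GRCm38.p6), with the matched element in capitals.

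Hspa5 (chr2:34771840-34772139, plus strand): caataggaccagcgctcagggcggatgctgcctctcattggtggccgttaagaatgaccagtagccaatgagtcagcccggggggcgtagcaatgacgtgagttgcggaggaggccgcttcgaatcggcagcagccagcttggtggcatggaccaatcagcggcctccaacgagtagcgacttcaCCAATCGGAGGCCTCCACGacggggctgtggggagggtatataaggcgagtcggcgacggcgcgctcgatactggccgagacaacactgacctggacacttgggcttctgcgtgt
Canx (chr11:50325624-50325923, minus strand): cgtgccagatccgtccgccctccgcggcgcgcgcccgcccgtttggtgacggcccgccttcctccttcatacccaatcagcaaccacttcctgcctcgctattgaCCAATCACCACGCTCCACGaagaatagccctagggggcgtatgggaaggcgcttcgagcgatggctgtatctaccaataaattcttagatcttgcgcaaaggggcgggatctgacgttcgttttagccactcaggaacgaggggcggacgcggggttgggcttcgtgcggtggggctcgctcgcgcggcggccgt
Herpud1 (chr8:94386179-94386478, plus strand): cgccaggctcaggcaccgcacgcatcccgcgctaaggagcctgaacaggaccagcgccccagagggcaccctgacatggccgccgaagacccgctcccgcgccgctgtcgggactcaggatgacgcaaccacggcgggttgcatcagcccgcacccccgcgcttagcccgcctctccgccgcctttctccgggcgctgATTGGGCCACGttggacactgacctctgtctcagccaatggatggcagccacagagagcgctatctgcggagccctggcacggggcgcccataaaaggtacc
Dnajb9 (chr12:44210019-44210318, minus strand): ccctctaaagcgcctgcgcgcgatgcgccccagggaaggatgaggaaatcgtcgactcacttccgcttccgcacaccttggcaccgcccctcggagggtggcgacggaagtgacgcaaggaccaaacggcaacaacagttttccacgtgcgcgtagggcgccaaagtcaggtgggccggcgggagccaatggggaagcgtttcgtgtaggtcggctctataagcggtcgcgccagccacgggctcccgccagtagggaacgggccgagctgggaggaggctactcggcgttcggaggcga
Pdia5 (chr16:35490824-35491123, minus strand): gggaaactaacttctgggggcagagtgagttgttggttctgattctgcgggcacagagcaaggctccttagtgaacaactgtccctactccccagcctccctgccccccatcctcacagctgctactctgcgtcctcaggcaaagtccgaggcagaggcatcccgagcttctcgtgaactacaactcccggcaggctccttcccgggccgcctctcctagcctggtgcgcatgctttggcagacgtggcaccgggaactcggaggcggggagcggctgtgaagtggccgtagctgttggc

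The RefSeq table held promoters of 28 of the 35 genes. The ERSE, searched as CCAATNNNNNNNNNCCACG on both strands, was found in 9 of these 28 genes (32.1%) and in 37 of the 27025 genes of the table (0.137%). In Hspa5 it began 65 bases upstream of the start, in Canx 145 bases upstream and in Calr 162 bases upstream on the opposite strand. Hsp90b1 held it at 2 places, 212 and 107 bases upstream, and Creld2, Derl3, Dnajc3, Pdia6 and Syvn1 held it at 1 place each. ERSE-II, searched as ATTGGNCCACG, was found in Dnajb11 and Herpud1, which is 2 of 28 genes (7.14%) against 0.044% of the table. Either element was thus present in 11 of 28 genes (39.3%) against 0.181%. The core of the unfolded protein response element, TGACGTGG, was in 0 of the 28 promoters and in 0.714% of the genes of the table. The short pieces were common: CCACG, which is also the tail of both longer elements, was in 85.7% of these genes and in 35.5% of the table, and CCAAT, which is also the head of the ERSE, in 78.6% and 41.1%. Only exact matches were counted, so copies with a mismatch were missed. A match describes letters and not binding.

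Per kilobase of exon, the levels of the 35 genes in liver spanned from 612 ± 136 CPM per kb (SD over 16 livers) for P4hb to 0.739 ± 0.691 for Derl3. P4hb encodes protein disulfide isomerase, and Derl3 a derlin known from secretory cells. After P4hb came the chaperones Calr (284 ± 81.9 CPM per kb) and Hspa5 (248 ± 83.5), then Herpud1 (219 ± 65.9) and Hsp90b1 (217 ± 61.3), and these 4 neighbours did not differ beyond their spread. The ATF6 and IRE1 sensor genes stood near the bottom, with Atf6 at 11.3 ± 1.37 and Ern1 at 12.2 ± 3.22 CPM per kb. Sec61g (4.53 ± 1.70) and Sec11c (3.06 ± 0.739) were lower still, far below their partners Sec61a1 (33.4 ± 7.21) and Spcs1 (28.4 ± 6.63). Exon length is the union of all annotated exons, so a gene with long rare exons is understated on this scale.

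**Figure D1:**
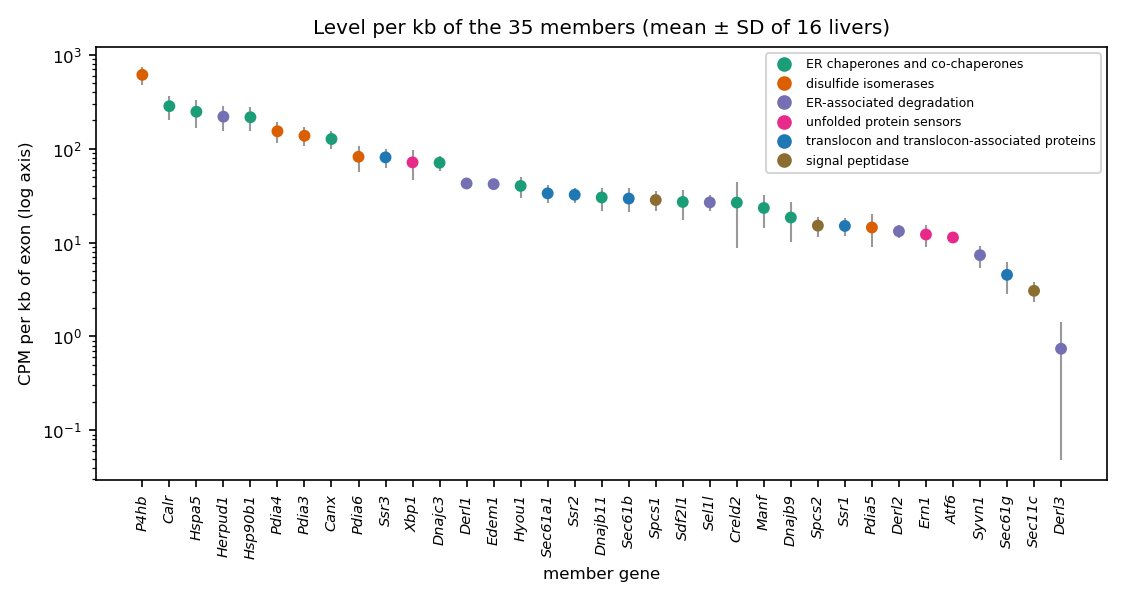
Level of each of the 35 genes in CPM per kb of exon on a log axis, in order of the mean over 16 livers, with bars for the SD over those livers and colours for the 6 roles. P4hb stands highest at 612 and Derl3 lowest at 0.739.

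With the high-fat diet 8 of the 35 genes fell in knockout livers and 2 in control livers, and members of 4 of the 6 roles were among them. In knockouts 8 of 35 fell and 0 rose (22.9% of members lower, against 5.35% of all genes tested). They were Pdia5, Dnajb9, Spcs2, Pdia3, Ssr3, Hspa5, Canx and Manf. The median log2 fold change of the 35 was -0.36, against 0.02 over all genes tested, and 34 of the 35 values were negative (20 with library totals in place of TMM scaling). At an unadjusted p under 0.05, 16 members were lower and 0 higher, against 14% and 14.8% of all genes. In control livers 2 of 35 fell, Pdia5 and Sec61a1, and 0 rose (5.71% lower, against 0.885% of all genes). Their median was -0.31, against 0.01 over all genes, and 33 of 35 values were negative (30 with library totals). At an unadjusted p under 0.05, 8 members were lower and 0 higher, against 7.09% and 9.98% of all genes. Pdia5 was the 1 gene called in both genotypes, which is 50% of the controls' list and 12.5% of the knockouts' list. DESeq2 called 9 members in knockouts (these 8 and Ssr1) and 4 in controls (these 2, Canx and Ssr1), and limma-voom called 6 of the 8 and both of the 2. The comparisons in controls and in knockouts share no livers. In both, 32 members had negative values, and 6 were lower at an unadjusted p under 0.05. Genes negative, lower or called in both comparisons were not counted over all genes. These overlaps thus do not show a pattern particular to the members.

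The summed level of the 35 genes was 10056 to 13484 CPM in chow controls, 8667 to 12938 in chow knockouts, 9167 to 10340 in controls given the high-fat diet and 7285 to 8428 in high-fat knockouts. On this TMM-scaled measure the high-fat knockouts lay below all 12 other livers. As a percent of all counts in the library, with no such scaling, the 35 genes took 0.836 to 1.01% in high-fat knockouts, as little as 0.744% in chow knockout 1, 0.840 to 1.07% in controls given the high-fat diet and 0.969 to 1.29% in chow controls, so on that measure the high-fat knockouts overlapped all 3 other groups. Hepatocyte markers moved with the diet too: their summed level ran from 121250 to 144240 CPM in chow knockouts and from 60117 to 81486 in high-fat knockouts, and Alb, Fgb and Pck1 (3 of 9) were called lower in that comparison. In controls the hepatocyte sums were 110680 to 128780 CPM on chow and 78880 to 113260 on the high-fat diet, with 0 of 9 called by edgeR and 3 of 9 lower at an unadjusted p under 0.05. The share of reads counted on sense-intronic or unconfirmed models was 0.0463 to 0.0878% in chow knockouts and 0.162 to 0.191% in high-fat knockouts. The part of the hepatocyte markers in the result was not tested. A fit with the share as a covariate is given below. The share did not overlap between chow and high-fat knockouts, so its part cannot be told apart from diet. In bulk liver, fewer cells of a type and less RNA per cell cannot be told apart.

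The call of 8 in knockouts rests on several livers. The share of all genes called lower moved with it. Leaving out chow knockout 2 gave 2 members (1.89% of all genes lower) and leaving out chow knockout 4 gave 4 (2.66%). Among the high-fat knockouts, leaving out replicate 2 gave 2 (1.34%), replicate 3 gave 4 (2.58%) and replicate 4 gave 3 (3.22%). It was 12 without high-fat control 3 (10.2%), 10 without chow knockout 1 (5.14%) and 17 without both (11.2%). With offsets for length and GC content it was 18 (13.8%). With the share of sense-intronic and unconfirmed models as a covariate it was 3 (3.52%), while the members' median was -0.35 and 30 of 35 values were negative. Dnajb9 and Pdia5 were called both with this covariate and with library totals alone. The other 6 of the 8 lost their call under each. The covariate fit also missed the targeted gene: Degs1 was not called for the knockout on either diet, and 0 of all genes were. For the knockout, a call lost in that fit thus does not show that a difference is absent. With diet the fit still called 873 of all genes in knockouts, against 1516 in the main fit. With diet in controls it called 1157, against 262. Why the 6 members lost their call was not tested. Scaling by library totals alone gave 2 (1.27%), but it also moved the median of all genes from 0.02 to 0.36. Relative to that median the members' median was -0.38 with TMM scaling and -0.39 with library totals, and 34 of 35 members lay below it in both. A change of scaling moves all genes by nearly the same amount. The position relative to all genes was thus bound to stay nearly the same and is no test of the fall. The members' own values were negative in 34 of 35 with TMM scaling and in 20 of 35 with library totals. In controls the count of 2 was 0 without chow control 2 (0.395% of all genes lower) or without chow control 3 (0.613%), 1 without chow control 4 (0.449%) or without high-fat control 2 (0.442%), and 4 without high-fat control 3 (2.18%). It was also 0 when only the control livers were fitted (0.349%) and 7 without both high-fat control 3 and chow knockout 1 (2.95%).

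**Figure D2:**
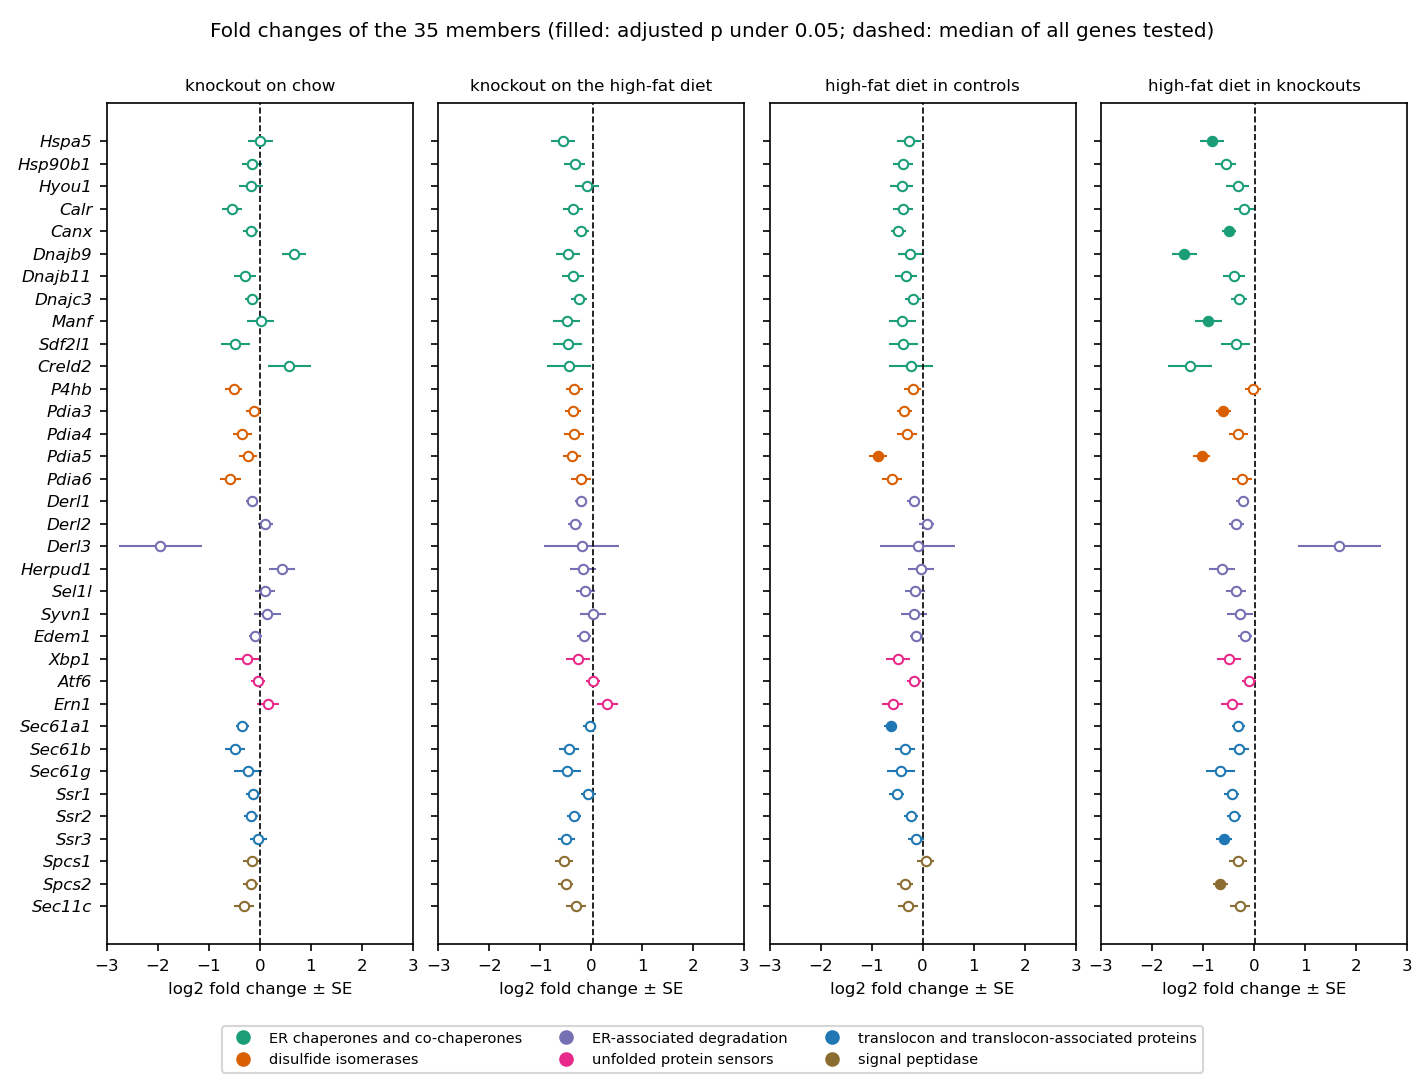
Log2 fold change with its standard error (x axis) of each of the 35 genes (y axis, coloured by role) in the 4 comparisons between groups; filled points passed the edgeR test at an adjusted p under 0.05, and the dashed line is the median of all genes tested. The 2 filled points for the high-fat diet in controls and the 8 in knockouts all lie to the left of that line, which stands at 0.01 and 0.02 with TMM and would stand at 0.13 and 0.36 with library totals; 14 of the 27 uncalled values in knockouts change sign under at least 1 alternative.

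Among the chaperones and co-chaperones, 4 of 11 (36.4%) fell on the high-fat diet in knockouts (Dnajb9, Manf, Hspa5 and Canx) and 0 in controls by edgeR. Of all genes, 5.35% were called lower in knockouts and 0.885% in controls. At an unadjusted p under 0.05, 1 of the 11 (9.09%) was lower in controls, near the 7.09% of all genes. All 11 values were negative in both genotypes, with medians of -0.49 and -0.38. Hspa5 (ENSMUSG00000026864, chr2:34771970-34777547, plus strand, build GRCm38) encodes BiP, the HSP70 of the ER lumen. It was at 1286, 1148, 1319 and 1164 CPM in the chow controls, 686, 1985, 949 and 1327 in the chow knockouts, 858, 1207, 913 and 1122 in the high-fat controls and 888, 644, 629 and 636 in the high-fat knockouts. Chow knockout 2 was the highest of all livers and chow knockout 1 lay within the range of the high-fat knockouts, so the chow and high-fat knockouts overlapped. In the edgeR test Hspa5 fell by 0.82 ± 0.24 (SE) on the log2 scale in knockouts (adjusted p = 0.0378). The call passed in 16 of 26 alternatives. Without chow knockout 2 the value was -0.49 (adjusted p = 0.167), with library totals alone -0.48 (0.165) and with the covariate -0.62 (0.247), and the call was also lost without chow knockout 4 or without high-fat knockout 2, 3 or 4, at adjusted p of 0.0873 to 0.110. In controls it was -0.26 ± 0.24 (SE), with an adjusted p of 0.638.

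Dnajb9 (ENSMUSG00000014905, chr12:44205559-44210326, minus strand) encodes ERdj4, a BiP co-chaperone and a classic target of XBP1. It was at 69.4, 47.2, 33.1 and 36.2 CPM in the chow controls, 54.7, 98.6, 68.7 and 73.8 in the chow knockouts, 28.4, 51.2, 47.1 and 30.4 in the high-fat controls and 32, 29.5, 26.7 and 26.8 in the high-fat knockouts. The 4 chow knockouts all lay above the 4 high-fat knockouts, which were tightly grouped, while the controls on chow and on the high-fat diet overlapped. Dnajb9 fell by 1.36 ± 0.24 (SE) with diet in knockouts (edgeR adjusted p = 0.0043), a call that held in all 26 alternatives run. In controls the difference was -0.24 ± 0.24 (SE), with an adjusted p of 0.665. The test of the difference between these 2 diet effects gave -1.12 ± 0.33 (SE), with an unadjusted p of 0.00358 and an adjusted p of 0.272 in edgeR. Dnajb9 was also the 1 member higher in chow knockouts than in chow controls at an unadjusted p under 0.05, at 0.67 ± 0.24 (SE) with an adjusted p of 0.44.

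Manf (ENSMUSG00000032575, chr9:106838312-106891979, minus strand) encodes a small secreted protein of the ER stress response that binds BiP. It was at 110.2, 96.5, 106 and 85.2 CPM in the chow controls, 50.5, 173, 75.3 and 102 in the chow knockouts, 69.5, 91.2, 66.7 and 74.9 in the high-fat controls and 73.7, 52.2, 42.6 and 47.5 in the high-fat knockouts. Chow knockout 2 again stood highest and chow knockout 1 lay among the high-fat knockouts. Manf fell by 0.89 ± 0.27 (SE) with diet in knockouts (edgeR adjusted p = 0.0424), passed in 11 of 26 alternatives, and was at -0.48 (adjusted p = 0.199) without chow knockout 2, at -0.55 (0.160) with library totals alone and at -0.76 (0.211) with the covariate. It was also lost without chow knockout 4, any 1 chow control, high-fat control 4 or high-fat knockout 2, 3 or 4, at adjusted p of 0.0503 to 0.115. Its exons overlap those of Dcaf1 and of an antisense gene on the other strand by 4.14% and 4.71% of its length; whether counting used strand is unknown here.

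Canx (ENSMUSG00000020368, chr11:50293961-50325673, minus strand) encodes calnexin, the membrane-bound lectin that holds glycoproteins while they fold. It was at 642, 639, 752 and 914 CPM in the chow controls, 562, 735, 672 and 631 in the chow knockouts, 503, 592, 446 and 581 in the high-fat controls and 498, 440.0, 459.7 and 455 in the high-fat knockouts. Both diets separated without overlap in both genotypes. Canx fell by 0.49 ± 0.14 (SE) with diet in knockouts (edgeR adjusted p = 0.0392) and was at -0.47 ± 0.14 (SE) in controls, where its adjusted p of 0.0954 did not pass. The call in knockouts passed in 14 of 26 alternatives; with library totals alone the value was -0.15 (adjusted p = 0.515) and with the covariate -0.52 (0.0913). It was lost without chow knockout 2, 3 or 4, high-fat control 4 or any 1 high-fat knockout, at adjusted p of 0.0502 to 0.129.

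Hsp90b1 encodes GRP94, the HSP90 of the ER. It was at 799, 865, 1107 and 1497 CPM in the chow controls, 866, 1307, 804 and 853 in the chow knockouts, 757, 959.9, 695 and 853 in the high-fat controls and 722, 562, 729 and 592 in the high-fat knockouts. The high-fat knockouts lay below the chow knockouts without overlap, and chow control 4 and chow knockout 2 were the highest livers. The difference with diet in knockouts, -0.56 ± 0.20 (SE), had an adjusted p of 0.0807 and was not called by edgeR. A pseudogene on the other strand overlaps 10.3% of the Hsp90b1 exon length. That pseudogene held a mean of 29.1 counts, against 14708 for Hsp90b1. Of the other chaperones, Creld2, which encodes a protein induced by ER stress, had the lowest value of the uncalled chaperones with diet in knockouts (-1.25 ± 0.43 (SE), adjusted p = 0.0701), and its chow knockouts spread from 16.8 to 116 CPM. The lectin chaperone Calr was at -0.20, Hyou1 at -0.32, Dnajc3 at -0.30, Sdf2l1 at -0.36 and Dnajb11 at -0.39 in the same comparison, and none of these 5 was called.

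**Figure D3:**
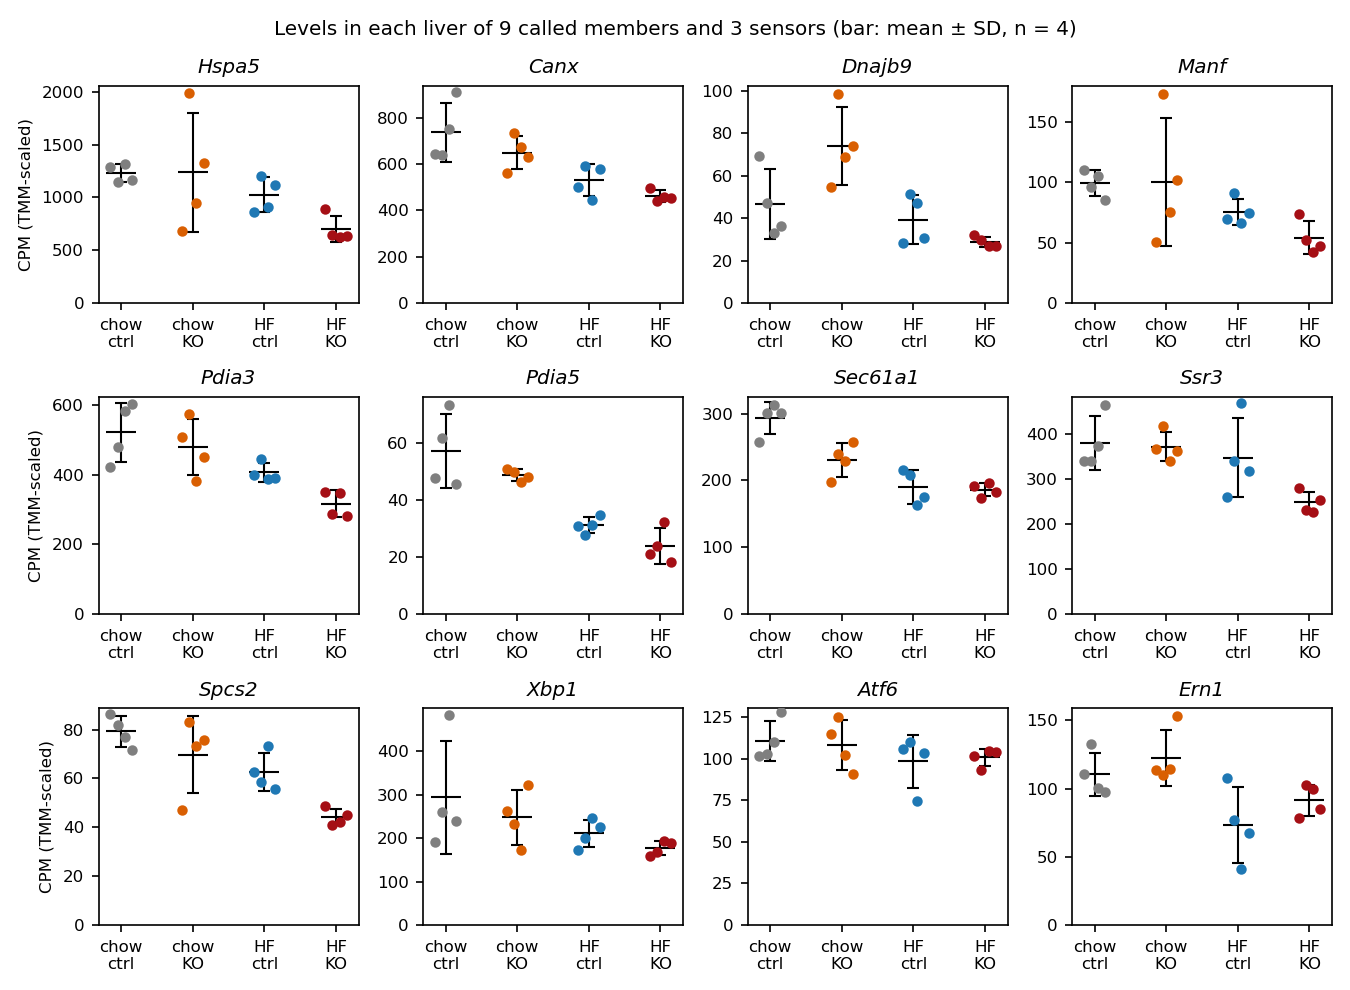
TMM-scaled CPM (y axis, from 0) in each liver of the 9 members called in any comparison and of the 3 sensor genes, by group (x axis), with points for livers and bars for the mean ± SD of 4. Pdia5 shows both high-fat groups below both chow groups, and the high-fat knockouts are the lowest group mean for each of the 9 called genes.

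The disulfide isomerases make and shuffle the disulfide bonds of secreted proteins. Pdia5 fell in both genotypes and Pdia3 in knockouts. With diet 1 of 5 was called in controls (20%, against 0.885% of all genes) and 2 of 5 in knockouts (40%, against 5.35%). Pdia5 (ENSMUSG00000022844, chr16:35397312-35490873, minus strand) encodes an isomerase known to act on ATF6. It was at 47.6, 61.5, 73.2 and 45.5 CPM in the chow controls, 50.6, 49.8, 46.2 and 47.8 in the chow knockouts, 30.9, 27.7, 31.1 and 34.5 in the high-fat controls and 20.9, 23.8, 32.4 and 18.2 in the high-fat knockouts. Every high-fat liver lay below every chow liver. Pdia5 fell by 0.87 ± 0.17 (SE) in controls (edgeR adjusted p = 0.0146) and by 1.03 ± 0.17 (SE) in knockouts (adjusted p = 0.00339). The difference between both diet effects was -0.15 ± 0.24 (SE), adjusted p = 0.851. The call in knockouts passed in all 26 alternatives and the call in controls in 22; it was lost without chow control 2 (-0.81, adjusted p = 0.0592), without chow control 3 (-0.71, adjusted p = 0.0531), without high-fat control 2 (-0.80, adjusted p = 0.0597) and when only the control livers were fitted (-0.83, adjusted p = 0.069).

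Pdia3 (ENSMUSG00000027248, chr2:121413775-121438687, plus strand) encodes ERp57, the isomerase that works with calnexin and calreticulin. It was at 422, 479.6, 582 and 603 CPM in the chow controls, 509, 575, 384 and 452 in the chow knockouts, 399.8, 447, 389 and 392 in the high-fat controls and 352, 287, 348 and 281 in the high-fat knockouts. The high-fat knockouts lay below every other liver. Pdia3 fell by 0.60 ± 0.15 (SE) with diet in knockouts (edgeR adjusted p = 0.0208) and was at -0.36 ± 0.15 (SE) in controls (adjusted p = 0.23). The call did not pass without chow knockout 2 (adjusted p = 0.0843), high-fat knockout 2 (0.0825) or high-fat knockout 4 (0.0608), with library totals alone (-0.25, adjusted p = 0.230) or with the covariate (-0.57, adjusted p = 0.0782). P4hb, the most abundant member, did not follow this order. Its difference with diet in knockouts was -0.02 ± 0.16 (SE), while its 4 chow knockouts (1397 to 1603 CPM) lay below its 4 chow controls (1690 to 2554), a difference of -0.51 ± 0.16 (SE) with an adjusted p of 0.405. Pdia4 and Pdia6 were at -0.30 and -0.23 with diet in knockouts, and Pdia6 was at -0.60 ± 0.20 (SE) in controls (adjusted p = 0.125).

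Of the 7 genes of ER-associated degradation, 0 were called with diet in either genotype by edgeR. At an unadjusted p under 0.05, 2 were lower in knockouts (28.6%, against 14% of all genes) and 0 in controls (against 7.09%). Herpud1, which encodes a scaffold of the HRD1 ubiquitin ligase and is strongly induced by ER stress, was at 502, 672, 406 and 365 CPM in the chow controls, 638, 882, 460.4 and 647 in the chow knockouts, 531, 578, 555 and 249 in the high-fat controls and 357, 375, 522 and 449 in the high-fat knockouts. The groups overlapped, with chow knockout 2 the highest and high-fat control 4 the lowest liver. With diet in knockouts it was at -0.63 ± 0.26 (SE), adjusted p = 0.117. Derl2, which encodes a derlin of the retrotranslocation machinery, was at 105, 109, 109.5 and 104 CPM in the chow controls, 99, 123, 109 and 129 in the chow knockouts, 93.1, 111, 144 and 103 in the high-fat controls and 88.9, 92.4, 76.1 and 105 in the high-fat knockouts. Only high-fat knockouts 1 to 3 lay below all 4 chow knockouts, and the difference was -0.34 ± 0.14 (SE), adjusted p = 0.121. Sel1l and Syvn1, the core of the HRD1 ligase, were at -0.36 and -0.28, and Derl1 and the mannosidase-like Edem1 at -0.22 and -0.18. Derl3 was near the limit of detection, at 0.0975 to 4.37 CPM, where 3 counts are worth 0.135 to 0.293 CPM. Its value of 1.67 ± 0.82 (SE) was the 1 positive value with diet in knockouts and rested on high-fat knockout 3, at 4.37 CPM against 0.533 to 0.884 in the other 3.

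The 3 sensor genes gave 0 calls by edgeR in any of the 6 tests, with Ern1 in controls the 1 value at an unadjusted p under 0.05. Xbp1, whose transcript IRE1 splices into the active factor, was at 192, 260.4, 483 and 239 CPM in the chow controls, 263, 233, 172 and 323 in the chow knockouts, 172, 199, 246 and 225 in the high-fat controls and 159.8, 167, 193 and 188 in the high-fat knockouts. Chow control 3 stood far above the rest and the groups overlapped. Both diet differences were -0.48, with standard errors of 0.24 and adjusted p of 0.312 in controls and 0.187 in knockouts. Gene-level counts do not separate spliced from unspliced Xbp1. Atf6 was at 102, 103, 110.0 and 128 CPM in the chow controls, 115, 125, 102 and 90.7 in the chow knockouts, 106, 110.3, 74.6 and 103 in the high-fat controls and 101, 93.5, 105 and 104 in the high-fat knockouts, with overlap in every comparison and diet differences of -0.17 in controls and -0.10 in knockouts. Ern1 was at 111, 133, 101 and 97.7 CPM in the chow controls, 114, 109.9, 114 and 154 in the chow knockouts, 108, 76.9, 41.1 and 67.5 in the high-fat controls and 78.4, 103, 99.5 and 85 in the high-fat knockouts. The lowest liver was high-fat control 3, and the high-fat knockouts lay below the chow knockouts without overlap. Its diet differences were -0.59 ± 0.21 (SE) in controls (adjusted p = 0.161) and -0.43 ± 0.21 (SE) in knockouts (adjusted p = 0.197).

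At the translocon, Sec61a1 fell with diet in controls and Ssr3 in knockouts, 1 of 6 (16.7%) in each. Of all genes, 0.885% were called lower in controls and 5.35% in knockouts. All 6 translocon values were negative in both genotypes, with medians of -0.38 and -0.41. Sec61a1 (ENSMUSG00000030082, chr6:88503579-88518905, minus strand) encodes the pore of the SEC61 channel. It was at 258, 301, 313 and 301 CPM in the chow controls, 197, 239, 229 and 257 in the chow knockouts, 215, 208, 163 and 175 in the high-fat controls and 192, 174, 196 and 182 in the high-fat knockouts. All 8 high-fat livers were at 215 CPM or less, chow controls were at 258 or more, and the chow knockouts lay between, with chow knockout 1 within the range of the high-fat controls. Sec61a1 fell by 0.62 ± 0.13 (SE) with diet in controls (edgeR adjusted p = 0.0158) and was at -0.31 ± 0.13 (SE) in knockouts (adjusted p = 0.117). The difference between both was 0.31 ± 0.18 (SE), adjusted p = 0.525. The call in controls did not pass without chow control 2 (adjusted p = 0.0626), chow control 3 (0.0514) or chow control 4 (0.0535), with library totals alone (0.0688), or when only the control livers were fitted (0.142). An antisense gene model overlaps 8.16% of its exon length but held almost no counts.

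Ssr3 (ENSMUSG00000027828, chr3:65379655-65392623, minus strand) encodes a subunit of the translocon-associated protein complex (TRAP), which helps signal sequences to open the channel. It was at 341, 342, 373 and 466 CPM in the chow controls, 367, 418, 341 and 364 in the chow knockouts, 262, 341, 471 and 319 in the high-fat controls and 279.7, 231, 228 and 255 in the high-fat knockouts. The high-fat knockouts lay below both chow groups, and high-fat control 3 was the highest liver of all. Ssr3 fell by 0.59 ± 0.16 (SE) with diet in knockouts (edgeR adjusted p = 0.0321), against -0.13 ± 0.16 (SE) in controls (adjusted p = 0.761), and the call passed in 16 of 26 alternatives. It was lost without chow knockout 2, 3 or 4 or any 1 high-fat knockout, at adjusted p of 0.0505 to 0.110. With the share of sense-intronic and unconfirmed models as a covariate it was at -0.26 (adjusted p = 0.337), and with library totals alone at -0.24 (adjusted p = 0.234). The other TRAP subunits Ssr1 and Ssr2 were at -0.43 and -0.39 in knockouts, and the small channel subunits Sec61b and Sec61g at -0.30 and -0.66, none of them called. In high-fat control 3, Sec61b, Sec61g, Ssr2, Ssr3 and Spcs1 were the highest of their group while Sec61a1 and Ssr1 were the lowest.

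Of the 3 signal peptidase genes, Spcs2 fell with diet in knockouts (33.3%, against 5.35% of all genes) and 0 were called in controls by edgeR. At an unadjusted p under 0.05, 1 was lower in controls (33.3%, against 7.09% of all genes). Spcs2 (ENSMUSG00000035227, chr7:99837569-99863462, minus strand) encodes an accessory subunit of the complex. It was at 86.5, 81.9, 77.1 and 71.7 CPM in the chow controls, 46.9, 83, 73.3 and 75.9 in the chow knockouts, 62.7, 58.5, 73.3 and 55.8 in the high-fat controls and 48.8, 41.1, 42.1 and 44.9 in the high-fat knockouts. The high-fat knockouts lay below every other liver except chow knockout 1. Spcs2 fell by 0.66 ± 0.15 (SE) with diet in knockouts (edgeR adjusted p = 0.0137) and was at -0.34 ± 0.15 (SE) in controls (adjusted p = 0.259). The call did not pass without chow knockout 2 (adjusted p = 0.0606) or without high-fat knockout 2 (0.0599), with library totals alone (-0.33, adjusted p = 0.142) or with the covariate (-0.49, adjusted p = 0.104). Spcs1, another accessory subunit, was at 46.8, 46.4, 53.6 and 45.3 CPM in the chow controls, 38.1, 45.3, 43 and 45.9 in the chow knockouts, 40.8, 38.7, 75.5 and 45 in the high-fat controls and 38.6, 30.8, 31.6 and 37.6 in the high-fat knockouts. High-fat control 3 stood far above the rest, and the high-fat knockouts lay below the high-fat controls without overlap, a genotype difference of -0.53 ± 0.18 (SE) with an adjusted p of 0.119. Without high-fat control 3 it was -0.25 (adjusted p = 0.391). Of the Spcs1 exon length, 16.3% is shared with Glt8d1 on the other strand. The catalytic subunit gene Sec11c was at -0.27 with diet in knockouts and -0.29 in controls.

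The knockout itself gave 0 calls among the 35 genes by edgeR on either diet. On chow, where 0.0139% of all genes were called lower, DESeq2 and limma-voom also called 0 members; at an unadjusted p under 0.05, 6 members were lower and 1 higher, against 4.42% and 5.1% of all genes. The 6 lower were P4hb, Pdia6, Calr, Sec61a1, Sec61b and Derl3, and the 1 higher was Dnajb9. The median was -0.16, against -0.01 over all genes; it was -0.06 without chow control 4, -0.09 without chow control 3 or without chow knockout 1, and -0.24 without chow knockout 2. On the high-fat diet, where 0.0488% of all genes were called lower, DESeq2 called 1 member (Spcs2) and limma-voom 0. At an unadjusted p under 0.05, 9 members were lower there and 0 higher, against 12.8% and 8.54% of all genes, with a median of -0.33 against 0.03 and 32 of 35 values negative. The lowest values were -0.55 ± 0.24 (SE) for Hspa5, -0.53 ± 0.18 (SE) for Spcs1 and -0.50 ± 0.15 (SE) for Spcs2, with adjusted p of 0.195, 0.119 and 0.11. Without high-fat control 3 these were -0.59, -0.25 and -0.40. With library totals alone the high-fat median was -0.11, against 0.23 over all genes. The members' median minus that of all genes was -0.35 with TMM, -0.33 with library totals, -0.19 with the covariate and -0.27 with length and GC offsets. The values with TMM and with library totals were bound to lie close, because scaling moves all genes by nearly the same amount.

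Averaged over both diets, 0 members were called for genotype by edgeR, where 0.125% of all genes were called lower. DESeq2 called 1 (P4hb) and limma-voom 0. At an unadjusted p under 0.05, 15 members were lower and 0 higher, against 11.6% and 9.09% of all genes, all 5 disulfide isomerases and all 3 signal peptidase genes among them. In edgeR P4hb was at -0.42 ± 0.11 (SE) (adjusted p = 0.135), Sec61b at -0.46 ± 0.14 (SE) (adjusted p = 0.139) and Calr at -0.46 ± 0.14 (SE) (adjusted p = 0.14). High-fat control 3 was far above its group for P4hb (2465 CPM, the next at 1757) and Sec61b (58.5, the next at 33.4). Their averages without that liver are not given here. The interaction, which asks whether diet acted differently in knockouts and controls, gave 0 calls among members and 0% of all genes by edgeR, and 0 members by DESeq2 and limma-voom. At an unadjusted p under 0.05 it gave 1 member lower (Dnajb9) and 0 higher, against 5.89% and 5.37% of all genes. Its median was -0.07, and it turned to 0.13 with library totals alone, where the median of all genes was 0.22, and to 0.01 without chow knockout 2.

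Livers of the same group differed, and often for many of these genes at once. Chow knockout 2 was the highest of its group for 26 of the 35 genes and chow knockout 1 the lowest for 22. Among the chow controls, replicate 1 was lowest for 15 genes and replicate 3 highest for 15. High-fat control 3 was lowest for 20 genes and highest for 11, so it did not simply shift as a whole. The median deviation of the 35 genes from their means over 16 livers, on the log2(CPM + 1) scale, ran from 0.08 to 0.40 in chow controls, -0.14 to 0.37 in chow knockouts, -0.26 to 0.09 in controls given the high-fat diet and -0.39 to -0.19 in high-fat knockouts.

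**Figure D4:**
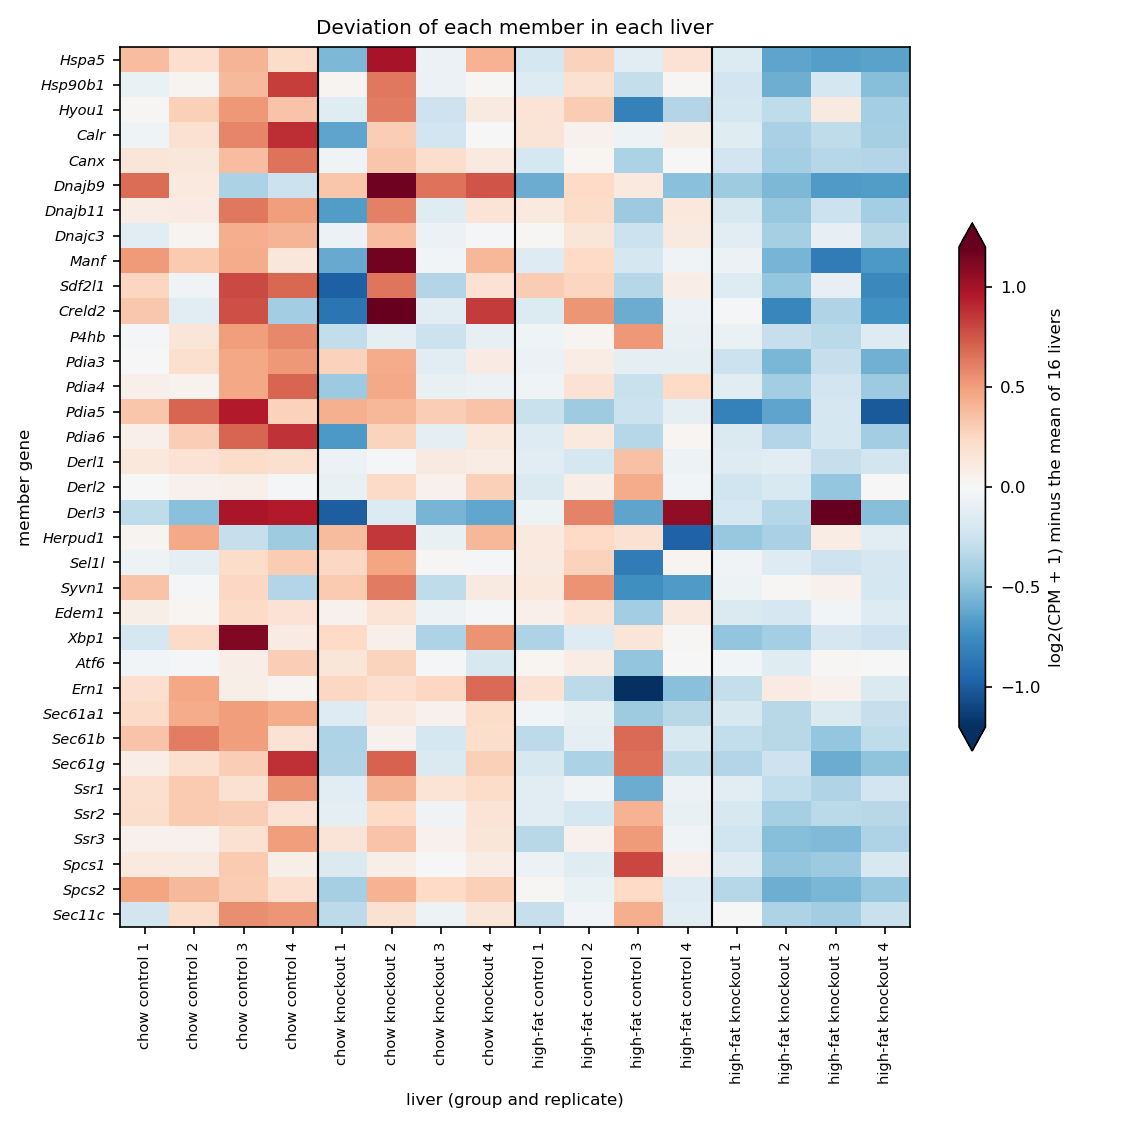
Log2(CPM + 1) of each gene (rows) in each liver (columns) minus its mean over the 16 livers; red is above and blue below that mean, and colours stop at 1.2 in either direction. The 4 high-fat knockouts are blue for most genes, chow knockout 2 is red for most and chow knockout 1 blue for many, and high-fat control 3 is red for Sec61b, Sec61g and Spcs1 and blue for Hyou1, Sel1l and Ern1.

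Other genes of the same pathways also fell with diet. Of 29 other ER folding and degradation genes tested, 7 fell in knockouts (24.1%, against 5.35% of all genes) and 2 in controls (6.90%, against 0.885%). Erp44, which retains proteins in the early secretory pathway, fell by 0.52 in knockouts (edgeR adjusted p = 0.0107), and in controls Edem2, a mannosidase of glycoprotein degradation, fell by 0.68 (adjusted p = 0.00809) and the lectin Os9 by 0.63 (adjusted p = 0.0471). Of 21 other targeting and translocation genes, 7 fell in knockouts (33.3%) and 2 in controls (9.52%). Tram1, which helps chains to enter the membrane, fell by 0.80 in knockouts (adjusted p = 0.00214), the SEC61 partner Sec62 by 0.57 (adjusted p = 0.0112) and Srp9 of the signal recognition particle by 0.55 (adjusted p = 0.0145). Of 20 N-glycosylation genes, 5 fell in knockouts (25%) and 2 in controls (10%). Those 2 were the oligosaccharyltransferase subunits Rpn2, at -0.68 (adjusted p = 0.00653), and Rpn1, at -0.60 (adjusted p = 0.0341), and the catalytic subunit Stt3a fell by 0.47 in knockouts (adjusted p = 0.0210). The medians of these 3 lists with diet in knockouts were -0.30, -0.39 and -0.34, beside -0.36 for the 35 genes. Low values were not particular to them: the median was -0.68 for 12 cytosolic heat shock genes and -0.51 for the 9 hepatocyte markers. At an unadjusted p under 0.05 in edgeR, 66.7% and 77.8% of these were lower, against 14% of all genes. Medians were -0.25 for ER to Golgi traffic, -0.20 for other regulators and 0.33 for integrated stress response targets.

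Of 23 genes of ER to Golgi traffic, 1 fell in knockouts (the retrieval receptor Kdelr2, at -0.50, adjusted p = 0.00965), a share of 4.35% that is below the 5.35% of all genes. In controls 0 were called by edgeR. At an unadjusted p under 0.05, 6 (26.1%) were lower and 1 (4.35%) higher there, against 7.09% and 9.98% of all genes. Sar1b and Mcfd2, of the COPII coat and cargo receptor machinery, were at -0.94 and -0.58 in knockouts against controls on the high-fat diet, with adjusted p of 0.0981 and 0.110. Of 12 other regulators of the unfolded protein response, 1 (8.33%) fell in knockouts (the eIF2α phosphatase subunit Ppp1r15b, at -0.46, adjusted p = 0.0345) and 0 in controls, with 2 lower there at an unadjusted p under 0.05; Ppp1r15a was at -0.79 in knockouts (adjusted p = 0.0521) and Wfs1 at -0.79 in controls (adjusted p = 0.108). Of 14 targets of the integrated stress response tested, 2 rose (Gdf15 and Vldlr, 14.3%) and 1 fell (Cebpb, 7.14%) with diet in knockouts. In controls 1 rose (Vldlr, by 2.25, edgeR adjusted p = 0.0143). Another 1 fell there (the asparagine synthetase gene Asns, at -3.56, edgeR adjusted p = 0.00752), and each is a share of 7.14%. Of all genes, 5.21% were called higher and 5.35% lower in knockouts, and 0.941% and 0.885% in controls. The stress cytokine gene Gdf15 rose by 2.46 in knockouts (adjusted p = 0.00150). Of 12 cytosolic heat shock genes, 2 (16.7%) fell in knockouts and 0 in controls, with 2 lower and 1 higher there at an unadjusted p under 0.05. Hspa8, the constitutive cytosolic HSP70, fell by 0.96 (adjusted p = 0.0157) and Hspa1b by 2.39 (adjusted p = 0.0101); Hspa1b shares most of its sequence with Hspa1a, so its counts are uncertain. Hspe1 was at -0.89 in knockouts against controls on the high-fat diet (adjusted p = 0.103). None of the genes in these 7 lists was called for the knockout on either diet by edgeR. At an unadjusted p under 0.05, 12 of the 21 other targeting and translocation genes were lower in knockouts on the high-fat diet, a share of 57.1% against 12.8% of all genes, and 0 on chow. On chow 4.42% of all genes were lower at that threshold. The same counts, high-fat diet first, were 7 (24.1%) and 5 (17.2%) of 29 for the other folding and degradation genes. For N-glycosylation they were 6 (30%) and 5 (25%) of 20, and for ER to Golgi traffic 3 (13%) and 0 of 23. The other regulators had 0 and 2 (16.7%) of 12, and the integrated stress response targets 1 and 1 of 14 (7.14% each). Cytosolic heat shock had 3 (25%) and 0 of 12. These counts are of lower genes only. For the knockout on the high-fat diet, 12 integrated stress response targets had positive and 2 negative values (median 0.36). On chow 4 were positive and 10 negative (median -0.22). In the interaction 5 (35.7%) were higher at that threshold, against 5.37% of all genes, and 0 were called by edgeR.

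Cells that carry much ER machinery were looked for through their markers. The 8 pancreatic acinar markers were all under 1 CPM in every group, with summed levels of 0 to 1.15 CPM. Of 7 plasma cell markers 4 were tested and 0 called with diet by edgeR (0 at an unadjusted p under 0.05), and their sums overlapped between all groups, at 19.7 to 84.2 CPM in chow knockouts and 20.98 to 129 in high-fat knockouts. Adipocyte markers summed to 0.390 to 2.36 CPM in chow knockouts and 1.23 to 50.8 in high-fat knockouts. Cidec, which fatty hepatocytes also express, made up most of the sum in high-fat knockouts 1 to 3, at 50.7, 8.07 and 1.17 CPM, and rose by 4.17 ± 0.87 (SE) with diet in knockouts (edgeR adjusted p = 0.00893). High-fat knockout 4 also held Adipoq at 6.59, Lep at 5.06, Plin1 at 4.06 and Retn at 1.27 CPM. These 4 were at 0 to 0.104 CPM in the other 3 high-fat knockouts. Without high-fat knockout 4, 3 members were called with diet in knockouts (3.22% of all genes lower). The count was 6 without replicate 1 (2.22%), 2 without replicate 2 (1.34%) and 4 without replicate 3 (2.58%). The sums of the Kupffer, stellate and sinusoidal endothelial markers overlapped between the chow and high-fat knockouts. Of the 6 stellate markers 1 rose, the collagen gene Col1a1, at 48.2 ± 21.8 CPM (SD, n = 4) in high-fat knockouts, against 8.87 ± 1.57 in chow knockouts and 8.08 ± 1.61 in controls given the high-fat diet. It rose by 2.45 ± 0.35 (SE) with diet in knockouts (edgeR adjusted p = 0.00129) and by 2.57 ± 0.35 in knockouts against controls on the high-fat diet (adjusted p = 0.00376). The part of these markers in the members' values was not tested.

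Among the 28 genes with a promoter in the table, the fold changes of those with and without an exact match to an ERSE or ERSE-II lay close together. Genes without an exact match may hold copies with a mismatch. With diet in knockouts the 11 genes with a match had a median of -0.39, with Hspa5 and Canx called, and the 17 without had a median of -0.43, with 5 called. In controls the medians were -0.26 and -0.34, and for the knockout on the high-fat diet -0.25 and -0.36. These are descriptions of small lists with no test.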

How the data were processed

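Libraries from liver total RNA used Ribo-Zero Gold and Illumina's TruSeq Stranded RNA chemistry, as the labels' protocols state. The authors deposited raw read counts per Ensembl gene for 16 livers, not normalized. The submitters' processing notes name GRCm38, STAR 2.5.4a, featureCounts 1.5.1 and DESeq2, with no settings for strand or multiply mapped reads. All 16 columns matched a label, and 0 did not. Symbols and exon lengths came from GENCODE release 21 for mouse (GRCm38), and promoters from RefSeq (GRCm38.p6).

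filterByExpr with a minimum count of 10 kept 14351 genes, and TMM factors scaled the libraries. edgeR 4.0.16 (R 4.3.3) fitted 1 model to all 16 livers, with a term per group, and tested it with quasi-likelihood F tests, with Benjamini-Hochberg adjustment over all genes tested and a threshold of 0.05; "called", "rose" and "fell" refer to this. CPM uses the TMM-scaled totals of the genes tested. Fold changes are on the log2 scale. Alternatives were DESeq2 1.42.0, limma-voom (limma 3.58.1), other scaling and filters, a fit of only the groups compared, removal of high-fat control 3 and chow knockout 1, a covariate for the share of reads counted on sense-intronic or unconfirmed (TEC) models, offsets for length and GC content, and each liver left out in turn. The model was tested on simulated data. No pair of livers in a group (24 pairs) agreed within sampling noise: chi-square over its degrees of freedom was 12.3 to 126. Labels give no pairing.

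Members and lists were chosen with earlier results of these data known. Values in every liver are given for members called in any comparison, for the 2 members of each role (all 3 sensors) with the smallest p between 2 groups, and for Hspa5, Xbp1 and Hsp90b1; up to 3 genes of each pathway list are named by smallest p, and genes that a short count names or a value singles out were chosen after their values were seen. C-terminal residues of the proteins were not analysed here.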

Additional observations from a re-analysis of the deposited data

Results flagged for a closer look

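In each group of 4 livers a value was picked out where its gap to the nearest other liver exceeded Dixon's 95% critical share of the group's range, which chance gives in about 1 in 20 groups (5%); this met 10 of the 140 groups of member values (7.14%). The library of high-fat control 3 was far above its group for P4hb (2465 CPM, the next at 1757), Sec61b (58.5, the next at 33.4), Sec61g (17.3, the next at 9.16) and Ssr2 (79.3, the next at 55.7). Chow knockout 2 was far above its group for Hsp90b1 (1307 CPM, the next at 866) and Dnajc3 (464, the next at 352). Chow knockout 4 was highest for Ern1 (154 CPM, the next at 114). High-fat knockout 1 was highest for Hspa5 (888 CPM, the next at 644), and high-fat knockout 3 for Derl3 (4.37 CPM, the next at 0.884). High-fat control 4 was lowest for Herpud1 (249 CPM, the next at 531). The share of reads counted on sense-intronic or unconfirmed models was far above its group in high-fat knockout 2 (0.191%, the next at 0.166%).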

How the results depend on the processing

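No called member changed sign under any of the 26 alternatives run, while 14 uncalled members did with diet in knockouts and 10 with diet in controls under at least 1. Called members for the diet in knockouts numbered 8, and 4 with upper-quartile factors, 2 with library totals, 17 without high-fat control 3 and chow knockout 1, 3 with the covariate, 18 with length and GC offsets, and 2 to 12 when 1 liver was left out, while the share of all genes called lower ran from 1.27 to 13.8%. For the diet in controls they numbered 2, and 4 with DESeq2, 1 with library totals, 4 with no filter, 0 in a fit of only the groups compared, 7 without both libraries, 4 with the covariate, 4 with length and GC offsets, and 0 to 4 when 1 liver was left out, beside 0.349 to 4.69% of all genes. For the knockout the 0 became 2 on chow with no filter, 1 on the high-fat diet with DESeq2, and 1 with DESeq2 and 4 with no filter for the average over diets; for the interaction it became 2 with no filter. Leaving out any 1 liver gave 0 in these 4. A fit of only the groups compared gives no interaction or average. The members' median moved by more than its spread between livers (0.159) in 4 cases: with library totals to -0.107 for the knockout on the high-fat diet, to -0.0230 for the diet in knockouts and to 0.132 for the interaction, and with length and GC offsets to -0.520 for the diet in knockouts, where the median of all genes was -0.132. The cause of these shifts was not tested. Counting error limits Derl3, where 3 counts are worth up to 0.293 CPM. No paired analysis was possible because the labels give no replicate numbers or pairs.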
